A study of Mus musculus with 12 samples.

Results

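The PYHIN genes of the mouse form a cluster on chromosome 1. A PYHIN protein carries a pyrin domain, which joins it to other pyrin proteins, or a HIN domain, which binds DNA, and most carry both. Aim2 binds double-stranded DNA in the cytosol and assembles the inflammasome, while p204, the protein of Ifi204, is a nuclear and cytosolic DNA sensor that acts upstream of the adaptor Sting1 and also binds the retinoblastoma protein. Many PYHIN genes are induced by interferons, and Ifi204 is best known from macrophages. The genes described are Ifi203, Ifi204, Ifi205, Ifi208, Aim2, Mndal and Pyhin1, 7 in all, and they were matched by symbol to the rows of the array table. The set was chosen by the measured values of Ifi204 and Ifi208, which had moved in opposite directions in these arrays. The levels and differences of these 2 genes are therefore given as a description with no test. Of the 7, 6 had a row that carried their symbol alone, out of 22180 genes with such a row, and Pyhin1 is listed under its present symbol, Ifi209. Ifi203 was read only by a row that it shares with LOC100862473 and Ifi203-ps. This left 4 members with a test, Aim2, Mndal, Ifi209 and Ifi205.

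The arrays measured CD4+ T cells from the spleens of 8-week-old Foxp3.eGFP mice on a C57BL6 background, a reporter that all groups carry and that marks regulatory T cells by GFP. Foxp3+ Treg and Foxp3- Teff cells were sorted from spleen cells cultured for 3 days with antibodies to CD3 and CD28 at 2 µg/ml, which act on the T cell receptor and its costimulator, from spleen cells cultured for 3 days with OX40L at 5 µg/ml and JAG1 at 1 µg/ml, soluble ligands of OX40 and Notch, or from fresh spleen cells (control). The comparison asks how expansion driven through the T cell receptor differs from expansion without it. The 6 groups, anti-CD3-CD28 Treg, anti-CD3-CD28 Teff, OX40L-JAG1 Treg, OX40L-JAG1 Teff, control Treg and control Teff, had 2 arrays each, called replicate B and replicate 1. Control cells had no time in culture, so the effects of culture and of treatment cannot be told apart in any difference from control. The labels do not say whether the replicates are separate mice or cultures, so the p-values speak only of how far these arrays scatter, and that scatter may be technical. Values are log2 intensities that the authors summarised with RMA, and the number of arrays limits their precision. A group mean under 4.87, the lowest median of any array over the 22180 genes, was taken as not shown to be above background.

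Foxp3 lay at 11.02 and 11.22 in anti-CD3-CD28 Treg, 10.92 and 10.64 in OX40L-JAG1 Treg and 10.36 and 10.37 in control Treg cells, and at 5.58 to 6.81 in the 6 Teff arrays. The OX40L-JAG1 Teff arrays stood apart. Their SD over genes was 1.49 and 1.71, against 1.95 to 2.19 in the other 10 arrays, and their replicates correlated at 0.881 across genes, against 0.984 to 0.994. Their 6 measured T cell markers summed to intensities of 3628 to 6230, against 7918 to 15631 in the other arrays, while all 7 neutrophil markers, 12 of 15 myeloid and dendritic cell markers and all 6 basophil and mast cell markers had group means above 4.87. S100a8, a calcium-binding protein of neutrophils, averaged 11.40 in OX40L-JAG1 Teff, 9.75 in OX40L-JAG1 Treg, 5.16 in control Teff and 3.48 in control Treg cells. A second fit left these 2 arrays out, and its values are given where they change a call of a member or the count of a list. Among the other groups, the T cell marker sum was lowest in anti-CD3-CD28 Teff cells, at 7918 to 7943, against 14681 to 15631 in control Teff cells. Of the 6 markers, 3 were called lower there by limma and 0 higher, with 9.75% of all genes lower and 5.44% higher. Its part in the differences of members between these 2 groups was not tested. In sorted bulk samples, fewer cells of a type and less RNA per cell cannot be told apart.

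Parts of the family's promoters share their letters. All 13 protein-coding genes from Aim2 to Ifi205 in the RefSeq gene table are PYHIN genes, with Ifi208, Ifi207 and Ifi204 next to each other in that order. The stretches below show how alike the promoters are. They come from the RefSeq promoter table (GRCm38.p6) and lie before the start of the gene, read 5′ to 3′ on the gene's strand, with a match to GAAANNGAA, the core letters of the interferon-stimulated response element, in capitals.
Ifi208 (chr1:173673582-173673627, plus strand): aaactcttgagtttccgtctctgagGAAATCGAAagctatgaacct
Ifi213 (chr1:173599325-173599370, minus strand): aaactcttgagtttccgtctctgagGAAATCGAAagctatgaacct
Mndal (chr1:173880203-173880248, minus strand): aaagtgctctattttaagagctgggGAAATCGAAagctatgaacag
Ifi203 (chr1:173942507-173942552, minus strand): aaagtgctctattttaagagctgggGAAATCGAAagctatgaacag
Ifi205 (chr1:174031869-174031914, minus strand): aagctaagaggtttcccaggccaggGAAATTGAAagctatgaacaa
The stretch of Ifi213 equals that of Ifi208 at 46 of 46 bases, and Ifi203 and Mndal share their stretch letter for letter. Ifi205 equals Ifi208 at 30 of 46 bases. The capitals begin 58 bases before the start of Ifi208, 73 before Ifi213, 36 before Mndal, 35 before Ifi203 and 134 before Ifi205.

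The promoter table has no entry for Ifi204, so its promoter was not searched. On either strand of the 250 bases before the start, GAAANNGAA was found in 4 of the 6 members with a promoter in the table, those of Ifi208, Mndal, Ifi203 and Ifi205, and in 9 of 12 family genes with one. It was held by 8.18% of the 27025 genes listed. The core letters TTCNNNGAA of STAT sites were found in 0 of the 6 members and in 1 of the 12 family genes, Ifi202b, against 8.13% of all genes listed. The matches to the different cores did not overlap. A match describes letters only.

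Ifi204 was bright only in cells given anti-CD3 and anti-CD28. Its level in replicates B and 1 was 5.37 and 5.49 in Treg cells and 7.75 and 7.83 in Teff cells of the anti-CD3-CD28 cultures. It was 2.22 and 2.21 in OX40L-JAG1 Treg and 1.88 and 2.59 in OX40L-JAG1 Teff cells, and 2.17 and 2.47 in control Treg and 2.18 and 2.01 in control Teff cells. Every anti-CD3-CD28 array lay above every other array, and each anti-CD3-CD28 Teff array above each anti-CD3-CD28 Treg array. The group means fell in the order anti-CD3-CD28 Teff, anti-CD3-CD28 Treg, control Treg, OX40L-JAG1 Teff, OX40L-JAG1 Treg and control Teff, and the last 4 lay below 4.87 and within 0.23 of each other. Among those 4, neighbours in the order overlapped, except that both OX40L-JAG1 Treg arrays lay above both control Teff arrays.

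**Figure D1:**
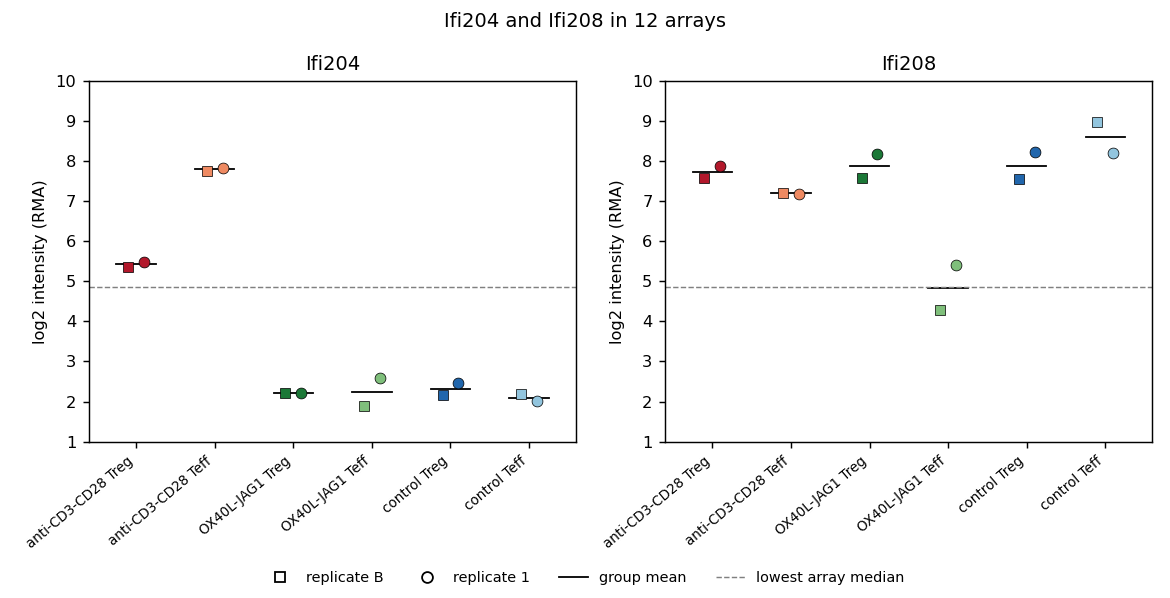
Log2 intensity of Ifi204 (left) and Ifi208 (right) in each array of the 6 groups, with squares for replicate B, circles for replicate 1, black bars for group means and a dashed line at the lowest array median. Ifi204 exceeds the line in the 4 anti-CD3-CD28 arrays and in none of the other 8, and Ifi208 is lowest in the 2 OX40L-JAG1 Teff arrays.

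Against fresh cells of the same type, the difference of Ifi204 was 3.11 ± 0.24 (SE) on the log2 scale for anti-CD3-CD28 Treg and 5.69 ± 0.24 for anti-CD3-CD28 Teff cells. Since the fresh cells were below background, these differences rest on a dim value. With each dim array set to its own median, Ifi204 was at least 1.39-fold higher in anti-CD3-CD28 Treg than in control Treg cells and at least 7.38-fold higher in anti-CD3-CD28 Teff than in control Teff cells. The same bound was at least 1.41-fold against OX40L-JAG1 Treg and at least 6.27-fold against OX40L-JAG1 Teff cells. After anti-CD3 and anti-CD28, Treg cells had less Ifi204 than Teff cells, by -2.36 ± 0.24, which needs no bound because both groups were above background. The response to the antibodies was -2.59 ± 0.33 (Treg minus Teff), a value that rests on dim levels in both control groups and has no bound. With OX40L and JAG1 the differences from control were -0.11 ± 0.24 in Treg and 0.14 ± 0.24 in Teff cells, within the spread of the replicates.

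The row shared by Ifi211 and Ifi204 reads either gene or both. It held 7.84 and 7.14 in anti-CD3-CD28 Treg and 9.21 and 9.34 in anti-CD3-CD28 Teff cells, 6.05 and 6.75 in OX40L-JAG1 Treg and 5.28 and 5.59 in OX40L-JAG1 Teff cells, and 5.84 and 5.93 in control Treg and 5.60 and 5.58 in control Teff cells. The anti-CD3-CD28 arrays were again the brightest, with Teff above Treg. The differences from control were 1.61 ± 0.29 in anti-CD3-CD28 Treg and 3.69 ± 0.29 in anti-CD3-CD28 Teff cells, and unlike Ifi204's own row this row was above 4.87 in all 6 groups. Neither Ifi211 nor Ifi206 had a row of its own.

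Markers of myeloid cells, where Ifi204 is also known, were read in the same arrays, and their part in the level of Ifi204 was not tested. The 15 myeloid and dendritic cell markers summed to an intensity of 433 to 439 in anti-CD3-CD28 Treg and 457 to 477 in anti-CD3-CD28 Teff cells, 1419 to 1518 in OX40L-JAG1 Treg and 1366 to 3292 in OX40L-JAG1 Teff cells, and 370 in both control Treg arrays and 444 to 486 in control Teff cells. The sums were highest in the OX40L-JAG1 arrays. In anti-CD3-CD28 cells they overlapped those of control in Teff cells and lay above them in Treg cells. Of the 15, 0 were called higher and 1 lower in anti-CD3-CD28 Teff against control Teff cells by limma, with a median difference of -0.0022, and 1 was called in each direction in anti-CD3-CD28 Treg against control Treg cells. Cd68, a lysosomal protein of macrophages and the brightest of the 15 in anti-CD3-CD28 cells, averaged 7.22 in anti-CD3-CD28 Treg and 6.17 in control Treg cells, and 6.53 in anti-CD3-CD28 Teff and 6.07 in control Teff cells. Csf1r and Adgre1, defining markers of macrophages, averaged 4.32 and 4.41 in anti-CD3-CD28 Teff cells, against 4.16 and 3.76 in control Teff cells, all below 4.87. Other markers of the 15 were brighter, with 5 above 4.87 in anti-CD3-CD28 Teff and 6 in control Teff cells. In anti-CD3-CD28 Treg and in control Treg cells 4 were above it. Fcer1g, the brightest in control Teff cells, averaged 6.32 in anti-CD3-CD28 Teff and 6.22 in control Teff cells. The 7 neutrophil markers summed to 197 to 215 in anti-CD3-CD28 Treg against 105 to 110.0 in control Treg cells, and to 180.0 to 212 in anti-CD3-CD28 Teff against 179 to 181 in control Teff cells. The brightest of them were Ltf in anti-CD3-CD28 Treg (6.48, against 4.30 in control Treg) and Ly6g in anti-CD3-CD28 Teff cells (6.44, against 3.98 in control Teff). S100a8 (4.67 against 5.16), Ngp (4.36 against 5.45) and Ltf (4.45 against 5.10) were lower in anti-CD3-CD28 Teff than in control Teff cells. Limma called 1 of the 7 higher and 1 lower there, with a median difference of -0.48 and 5.44% of all genes higher and 9.75% lower. In the Treg comparison 1 was called higher and 0 lower (median 0.13), with 8.08% and 1.97% of all genes.

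**Figure D2:**
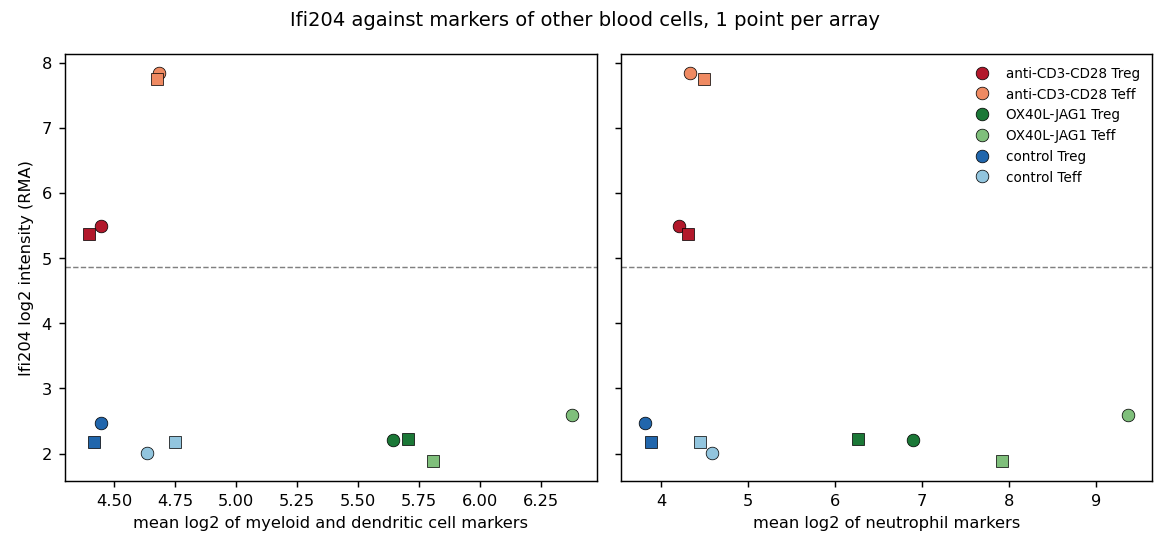
Log2 intensity of Ifi204 against the mean log2 of 15 myeloid and dendritic cell markers (left) and of 7 neutrophil markers (right), 1 point per array, with squares for replicate B, circles for replicate 1 and a dashed line at the lowest array median. The 4 arrays with Ifi204 above the line have marker means in the range of the control arrays or near it, and the 4 OX40L-JAG1 arrays have the highest marker means.

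Likeness to Ifi204 was read by Pearson's r over the 12 arrays, which belong to only 6 groups. It was ranked among genes with a mean of at least 4.87 over the 12 arrays, with predicted, clone-named and small RNA genes passed over. The most alike of these were Kcnk5 (0.98), Gmnn (0.97), Cysltr1 (0.97), Adam8 (0.96) and Pclaf (0.96). Kcnk5 encodes a potassium channel, Gmnn the replication licensing inhibitor geminin, Cysltr1 a leukotriene receptor, Adam8 a membrane protease and Pclaf a partner of the replication clamp. Cysltr1, for example, averaged 6.82 in anti-CD3-CD28 Treg, 8.47 in anti-CD3-CD28 Teff and 3.52 in control Teff cells.

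Ifi208, listed with the synonym Pydc3, showed another pattern. Its level in replicates B and 1 was 7.57 and 7.87 in anti-CD3-CD28 Treg and 7.21 and 7.18 in anti-CD3-CD28 Teff cells, 7.59 and 8.18 in OX40L-JAG1 Treg and 4.27 and 5.40 in OX40L-JAG1 Teff cells, and 7.55 and 8.22 in control Treg and 8.99 and 8.21 in control Teff cells. In Teff cells the 3 conditions did not overlap, with fresh cells highest and OX40L-JAG1 cells lowest, whereas the Treg arrays of the 3 conditions overlapped. Against control Teff cells the difference was -1.41 ± 0.39 in anti-CD3-CD28 Teff and -3.76 ± 0.39 in OX40L-JAG1 Teff cells. Against control Treg cells it was -0.17 ± 0.39 in anti-CD3-CD28 Treg and -0.0035 ± 0.39 in OX40L-JAG1 Treg cells. The opposite movement of Ifi204 and Ifi208, by which both were chosen, was thus a matter of anti-CD3-CD28 Teff cells, with 5.69 for Ifi204 and -1.41 for Ifi208. The mean of OX40L-JAG1 Teff, 4.84, was just under the bound of 4.87, with replicate 1 above it. The OX40L-JAG1 Teff value of Ifi208 moved with the arrays that stood apart, and the part of their T cell share in it was not tested. It depended little on the scaling, at -3.79 ± 0.46 after quantile normalization. Without replicate B of OX40L-JAG1 Teff it was -3.20, and without replicate 1 it was -4.33.

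By the same likeness rule, the genes closest to Ifi208 were Thoc1 (0.99), Vps37a (0.97), Nop14 (0.97), Top2b (0.97) and Ubp1 (0.97). Without the 2 OX40L-JAG1 Teff arrays, their r was 0.91, 0.93, 0.82, 0.85 and 0.80. Thoc1 encodes a subunit of a messenger RNA export complex and Top2b a DNA topoisomerase.

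Aim2 was higher in Treg than in Teff cells in every condition. In replicates B and 1 it had 7.02 and 7.08 in anti-CD3-CD28 Treg against 6.47 and 6.07 in anti-CD3-CD28 Teff cells. It had 7.24 and 7.09 in OX40L-JAG1 Treg against 5.12 and 5.73 in OX40L-JAG1 Teff cells, and 7.55 and 7.65 in control Treg against 6.95 and 6.89 in control Teff cells. The Treg and Teff arrays of a condition did not overlap, and within each cell type the fresh arrays were the highest. The Treg minus Teff difference was 1.74 ± 0.23 with OX40L and JAG1 (limma, adjusted p = 0.000275), 0.78 ± 0.23 with anti-CD3 and anti-CD28 (adjusted p = 0.0488) and 0.68 ± 0.23 in fresh cells (adjusted p = 0.143). In a fit without the OX40L-JAG1 Teff arrays, which has a smaller estimate of the spread, the anti-CD3-CD28 and fresh differences had adjusted p = 0.00472 and 0.0175. The anti-CD3-CD28 call was lost in each of the 4 refits that left out 1 array of either group compared, with adjusted p from 0.0592 without replicate B of anti-CD3-CD28 Teff to 0.299 without its replicate 1, and was lost after quantile normalization (0.42, adjusted p = 0.525) and with all rows tested (adjusted p = 0.0755).

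Aim2 fell in OX40L-JAG1 Teff against control Teff cells, by 1.49 ± 0.23 on the log2 scale (adjusted p = 0.000442). The differences of anti-CD3-CD28 Teff against control Teff cells (-0.65 ± 0.23, adjusted p = 0.0840) and of anti-CD3-CD28 Treg against control Treg cells (-0.55 ± 0.23, adjusted p = 0.179) did not pass, and both passed without the OX40L-JAG1 Teff arrays (adjusted p = 0.0108 and 0.0320). Aim2 was also higher in anti-CD3-CD28 Teff than in OX40L-JAG1 Teff cells (0.85 ± 0.23, adjusted p = 0.0186). That call was lost without replicate B of OX40L-JAG1 Teff (adjusted p = 0.0594) or without replicate B of anti-CD3-CD28 Teff (adjusted p = 0.143). The responses to OX40L-JAG1 of Treg and Teff cells differed by 1.06 ± 0.32 (Treg minus Teff, adjusted p = 0.0289), a call lost in 6 of 8 refits with 1 array left out. The responses to the antibodies differed by 0.10 ± 0.32 (adjusted p = 0.873).

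Mndal, a nuclear PYHIN protein related to the human myeloid nuclear differentiation antigen, had its lowest arrays among the cultured Teff cells. In replicates B and 1 it had 9.17 and 9.29 in anti-CD3-CD28 Treg and 7.62 and 8.46 in anti-CD3-CD28 Teff cells, 9.56 and 10.24 in OX40L-JAG1 Treg and 6.59 and 8.24 in OX40L-JAG1 Teff cells, and 9.08 and 9.64 in control Treg and 8.59 and 8.90 in control Teff cells. Every Treg array lay above every Teff array. The Treg minus Teff difference was 2.49 ± 0.47 with OX40L-JAG1 (adjusted p = 0.00207). That difference was 1.67 without replicate B of OX40L-JAG1 Teff, 3.31 without its replicate 1 and 1.53 after quantile normalization, and its call was lost with only the arrays compared (adjusted p = 0.0605). The Treg minus Teff difference was 1.19 ± 0.47 with the antibodies (adjusted p = 0.128, or 0.0113 without the OX40L-JAG1 Teff arrays) and 0.62 ± 0.47 in fresh cells (adjusted p = 0.605). The replicates of OX40L-JAG1 Teff differed by more than those of any other group, and the fall against control Teff, 1.33 ± 0.47 (difference -1.33, adjusted p = 0.0374), was lost without replicate B, where the difference was -0.51 (adjusted p = 0.268), and after quantile normalization, where it was -0.34 (adjusted p = 0.623). It was also lost without either control Teff array (adjusted p = 0.0889 without replicate B, 0.158 without replicate 1).

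Ifi209, the present name of Pyhin1, varied least among the members above background. It held 9.97 and 10.03 in anti-CD3-CD28 Treg, 9.68 and 10.24 in anti-CD3-CD28 Teff, 10.13 and 10.14 in OX40L-JAG1 Treg, 8.45 and 9.29 in OX40L-JAG1 Teff, 9.79 and 10.19 in control Treg and 9.80 and 9.69 in control Teff cells. Only the OX40L-JAG1 Teff arrays lay apart from the rest. They were lower than control Teff (-0.88 ± 0.28, adjusted p = 0.0256), and Ifi209 was higher in OX40L-JAG1 Treg than in OX40L-JAG1 Teff cells (1.27 ± 0.28, adjusted p = 0.00512) and in anti-CD3-CD28 Teff than in OX40L-JAG1 Teff cells (1.09 ± 0.28, adjusted p = 0.0158). After quantile normalization these 3 differences were 0.10, 0.34 and 0.27 with none called. The fall against control Teff was lost without replicate B of OX40L-JAG1 Teff (-0.46, adjusted p = 0.137), without replicate B of control Teff (adjusted p = 0.118) and without its replicate 1 (adjusted p = 0.0806). The difference from anti-CD3-CD28 Teff was lost without replicate B of OX40L-JAG1 Teff (adjusted p = 0.0546) and without replicate 1 of anti-CD3-CD28 Teff (adjusted p = 0.114).

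Ifi205 was below background in all 6 groups, with arrays from 3.06 to 4.72, and 0 of its differences passed. Without replicate 1 of OX40L-JAG1 Teff, the remaining array of that group (4.72) gave a difference of 1.20 from control Teff (adjusted p = 0.00792), still under 4.87. Ifi203 could be followed only in its shared row, which was tested in a fit over all 41345 rows. It held 8.92 and 9.02 in anti-CD3-CD28 Treg, 8.28 and 7.98 in anti-CD3-CD28 Teff, 9.51 and 9.55 in OX40L-JAG1 Treg, 6.61 and 7.88 in OX40L-JAG1 Teff, 8.86 and 9.25 in control Treg and 8.97 and 9.12 in control Teff cells. As with Mndal, the cultured Teff arrays were the lowest. The row was lower in OX40L-JAG1 Teff than in control Teff cells (-1.80 ± 0.36, adjusted p = 0.00500) and higher in OX40L-JAG1 Treg than in OX40L-JAG1 Teff cells (2.29 ± 0.36, adjusted p = 0.00239). In anti-CD3-CD28 Teff against control Teff cells it differed by -0.92 ± 0.36 (adjusted p = 0.144, and 0.00742 without the OX40L-JAG1 Teff arrays).

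**Figure D3:**
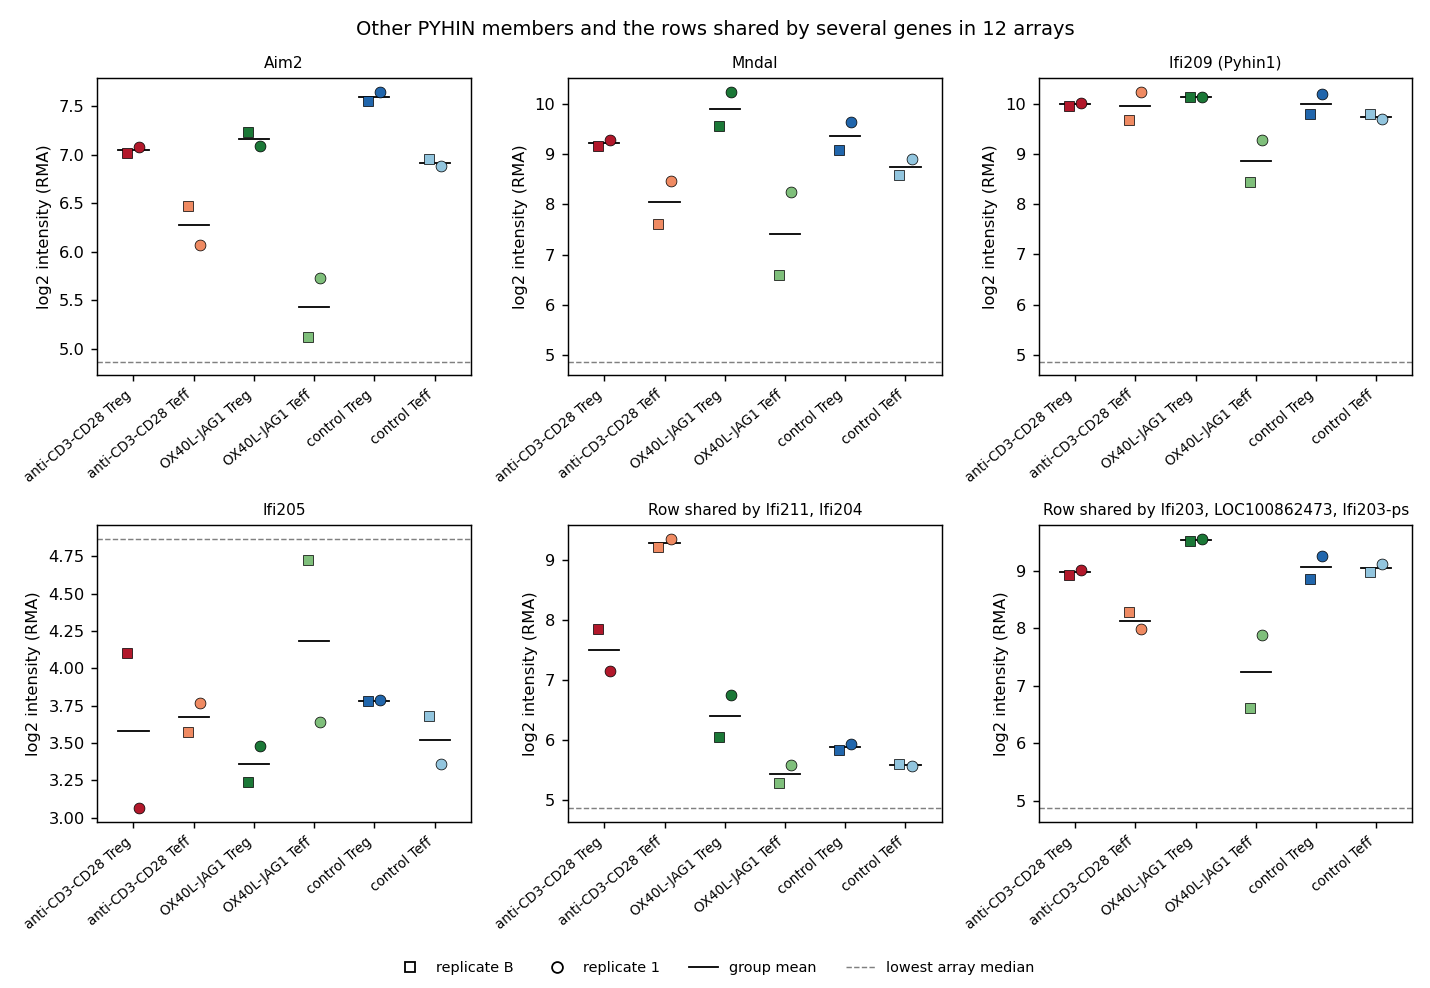
Log2 intensity of Aim2, Mndal, Ifi209, Ifi205 and the 2 shared rows in each array of the 6 groups, with symbols as for Ifi204 and an axis of its own for each panel. Aim2 and Mndal are higher in Treg than in Teff cells of each condition, Ifi205 stays below the dashed line, and the row shared by Ifi211 and Ifi204 is highest in anti-CD3-CD28 Teff cells.

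The counts of members called are set beside the share of all genes called. In anti-CD3-CD28 Treg against control Treg cells limma called 0 of the 4 tested members (1 at an unadjusted p under 0.05), with 10.1% of all genes called, and 1 of 4 once the OX40L-JAG1 Teff arrays were left out, with 21.5%. In anti-CD3-CD28 Teff against control Teff cells it called 0 (1 unadjusted), with 15.2% of all genes, and 1 without those arrays, with 28.9%. OX40L-JAG1 Treg against control Treg cells gave 0 members (0 unadjusted) at 1.56% and 0 at 5.41% without them. OX40L-JAG1 Teff against control Teff cells gave 3 members, all lower, with 46.9% of all genes called. The median difference over the 11657 genes with a mean of at least 4.87 was itself -0.69 in that comparison, so brighter genes as a whole were lower. All genes together had a median of 0.18 there, and -0.0031 after quantile normalization.

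Between the treatments, 0 members (0 unadjusted) were called in anti-CD3-CD28 Treg against OX40L-JAG1 Treg cells, at 5.91% of all genes, and 0 without the OX40L-JAG1 Teff arrays, at 13.9%. Of the 4, 2 were called, both higher, in anti-CD3-CD28 Teff against OX40L-JAG1 Teff cells, at 28.1%. Between the cell types, 3 were called, all higher, in OX40L-JAG1 Treg against OX40L-JAG1 Teff cells, at 41.1%. In anti-CD3-CD28 Treg against anti-CD3-CD28 Teff cells 1 was called at 11.9%, and 2 at 28.7% without the OX40L-JAG1 Teff arrays. Control Treg against control Teff cells had 0 (1 unadjusted) at 3.85%, and 1 at 14.5% without them. The response to OX40L-JAG1 differed between Treg and Teff cells for 1 member, with 31.5% of all genes, and the response to the antibodies for 0 (0 unadjusted), with 13.1%, and for 0 at 31% without those arrays.

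**Figure D4:**
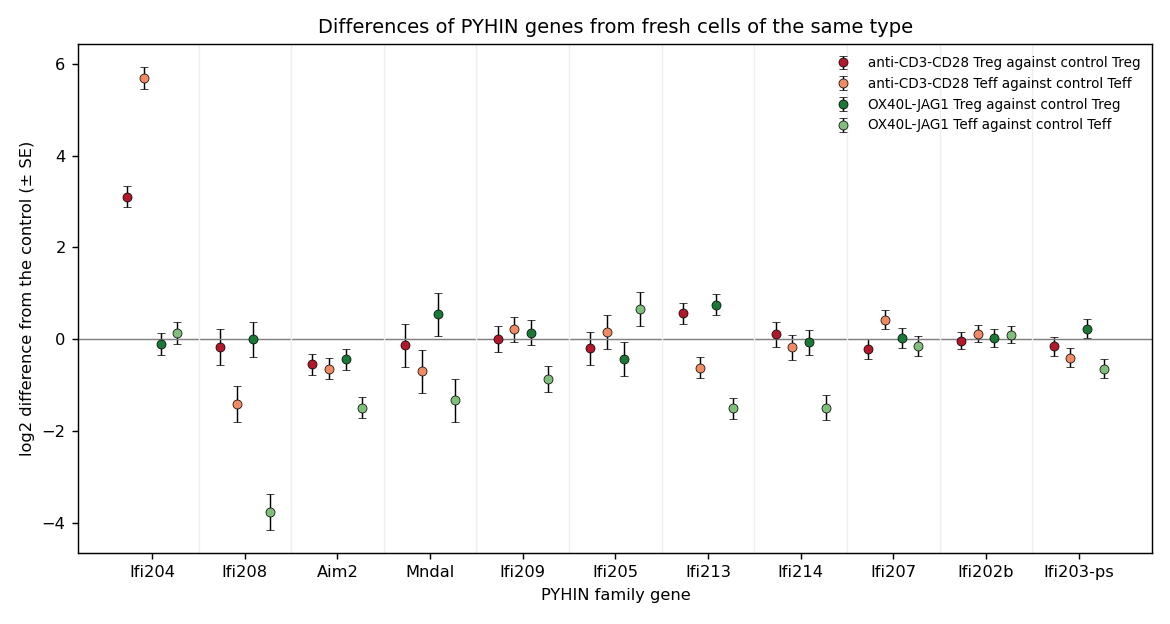
Log2 difference of each PYHIN gene from fresh cells of the same type, with its standard error from the fit over 12 arrays, for the 4 treated groups. Ifi204 at 3.11 and 5.69 after the antibodies and Ifi208 at -3.76 in OX40L-JAG1 Teff cells lie outside the range of the other genes, which runs from -1.51 to 0.75.

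Of 7 other PYHIN genes listed, 5 had a row of their own. Ifi207, Ifi202b and Ifi203-ps were below 4.87 in all 6 groups. Ifi213, listed with the synonym Pydc4, held 7.99 and 8.13 in anti-CD3-CD28 Treg, 7.67 and 7.62 in anti-CD3-CD28 Teff, 8.12 and 8.38 in OX40L-JAG1 Treg, 6.46 and 7.06 in OX40L-JAG1 Teff, 7.36 and 7.64 in control Treg and 8.21 and 8.33 in control Teff cells. The Treg arrays lay below the Teff arrays in fresh cells (difference -0.77 ± 0.23, adjusted p = 0.0940, and 0.00847 without the OX40L-JAG1 Teff arrays) and above them after anti-CD3-CD28 (0.41 ± 0.23, adjusted p = 0.263) and OX40L-JAG1 (1.49 ± 0.23, adjusted p = 0.000607). The responses of Treg and Teff cells differed by 1.18 ± 0.32 for the antibodies (adjusted p = 0.0331, and 0.00268 without the OX40L-JAG1 Teff arrays) and by 2.26 ± 0.32 for OX40L-JAG1 (adjusted p = 0.000691). With the antibodies the difference from control was 0.56 ± 0.23 in Treg (adjusted p = 0.166) and -0.62 ± 0.23 in Teff cells (adjusted p = 0.0931). Those passed without the OX40L-JAG1 Teff arrays, with adjusted p = 0.0271 and 0.0124. After quantile normalization the antibody interaction was 0.62 (adjusted p = 0.226). Ifi214 ranged from 6.18 to 6.69 in the arrays outside OX40L-JAG1 Teff, which held 4.54 and 5.41, and was lower there than in control Teff cells (-1.50 ± 0.27, adjusted p = 0.00128).

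**Figure D5:**
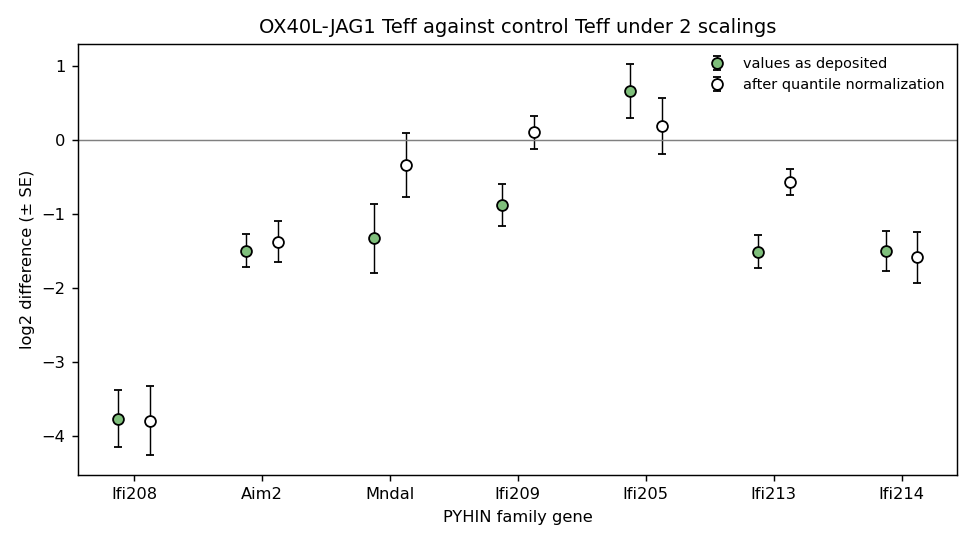
Log2 difference of 7 PYHIN genes in OX40L-JAG1 Teff against control Teff cells, with its standard error, from the values as deposited (filled) and after quantile normalization (open). Ifi208, Aim2 and Ifi214 keep their differences, Mndal, Ifi213 and Ifi205 lie nearer to 0, and Ifi209 changes sign from -0.88 to 0.10.

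The genes that surround the family in its pathway were followed in 5 lists. Their values come from the fit of 12 arrays. Of 76 calls of list genes between groups other than OX40L-JAG1 Teff that the naming rule took, 76 were also called without the OX40L-JAG1 Teff arrays. That fit keeps the group means and has a smaller estimate of the spread. The 76 had also been picked for large differences, so it could hardly lose them and does not test how steady they are. Among 18 measured interferon-induced effectors of 22 listed, 10 rose and 0 fell in anti-CD3-CD28 Treg against control Treg cells (15 and 0 in the fit that leaves out the OX40L-JAG1 Teff arrays), with a median difference of 0.94. All genes had 8.08% higher, 1.97% lower and a median of -0.048. After quantile normalization 7 effectors rose and 0 fell, with a median of 0.65, beside 4.53% of all genes higher and 2.35% lower. The fit without those arrays called 21.5% of all genes. Oas2, which makes the activator of RNase L, rose by 2.84 ± 0.22 (adjusted p = 1.42e-05) and the immunity-related GTPase Igtp by 1.76 ± 0.24 (adjusted p = 0.000704). In anti-CD3-CD28 Teff against control Teff cells 10 rose and 0 fell (15 and 0 without those arrays), with a median of 1.17. All genes had a median of 0.068, with 5.44% higher and 9.75% lower, and 28.9% called without those arrays. The guanylate-binding proteins Gbp3 (2.16 ± 0.34, adjusted p = 0.00141) and Gbp5 (1.95 ± 0.18, adjusted p = 4.31e-05), the antiviral GTPase Mx1 (1.65 ± 0.25, adjusted p = 0.00116) and the ubiquitin-like Isg15 (1.56 ± 0.30, adjusted p = 0.00525) were among those that rose. Mx1 averaged 4.18 in control Teff cells, under 4.87, so the size of its rise rests on a dim value. In OX40L-JAG1 Treg against control Treg cells, 0.996% of all genes were higher and 0.559% lower, and 5.41% were called with OX40L-JAG1 Teff left out. Of the effectors, 2 rose and 1 fell (6 and 1 with OX40L-JAG1 Teff left out). They were Igtp by 1.66 ± 0.24 (adjusted p = 0.00552) and Oasl2 by 1.24 ± 0.25 (adjusted p = 0.0319) upward, while Mx2 fell by 1.71 ± 0.26 (adjusted p = 0.00628). Mx2 averaged 3.84 in OX40L-JAG1 Treg cells, under 4.87, so the size of its fall rests on a dim value.

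Of 17 measured interferon receptors and signal transducers, 8 rose and 0 fell in anti-CD3-CD28 Treg against control Treg cells, and 6 rose and 4 fell in anti-CD3-CD28 Teff against control Teff cells. Of all genes, 8.08% were higher and 1.97% lower in the Treg comparison, and 5.44% higher and 9.75% lower in the Teff comparison. With OX40L-JAG1 Teff left out, 10 rose and 0 fell in Treg and 8 rose and 4 fell in Teff cells. That fit called 21.5% of all genes in the Treg and 28.9% in the Teff comparison. After quantile normalization 5 rose and 0 fell in Treg cells, with 4.53% of all genes higher and 2.35% lower. Stat2, a transducer of type I interferon signals, rose in both, by 2.36 ± 0.26 in Treg (adjusted p = 0.000157) and by 1.31 ± 0.26 in Teff cells (adjusted p = 0.00618), and so did the inhibitor Socs1, by 1.93 ± 0.27 (adjusted p = 0.000684) and 1.35 ± 0.27 (adjusted p = 0.00561). In anti-CD3-CD28 Treg against anti-CD3-CD28 Teff cells, 10 of the 17 were higher, the reverse of Ifi204, and 1 was lower. Of all genes, 9.03% were higher and 2.89% lower there. After quantile normalization 4 of the 17 were higher and 1 lower, with 3.12% of all genes higher and 1.91% lower. With OX40L-JAG1 Teff left out, 12 were higher and 1 lower, at 28.7% of all genes called. The 1 lower in the values as deposited was Ifng, which encodes interferon gamma, at 5.44 in anti-CD3-CD28 Treg and 7.64 in anti-CD3-CD28 Teff cells (difference -2.20 ± 0.21, adjusted p = 0.000102). The rise of Ifng in anti-CD3-CD28 Teff against control Teff cells was 2.60 ± 0.21 (adjusted p = 1.93e-05). The receptor Ifngr1 rose in OX40L-JAG1 Treg against control Treg cells by 1.95 ± 0.19 (adjusted p = 0.000597), where Ifi204 stayed below background.

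Among 16 measured genes of cytosolic nucleic acid sensing, 6 rose and 0 fell in anti-CD3-CD28 Treg against control Treg cells (all genes 8.08% and 1.97%), and 1 rose and 3 fell in anti-CD3-CD28 Teff against control Teff cells (all genes 5.44% and 9.75%). With OX40L-JAG1 Teff left out, the counts were 11 and 0 in Treg and 3 and 5 in Teff cells, at 21.5% and 28.9% of all genes called. After quantile normalization 2 rose and 1 fell in Teff cells, with 5.11% of all genes higher and 6.45% lower. Dhx58, a regulator of RNA sensing, rose in both (1.99 ± 0.20, adjusted p = 6.34e-05, and 1.09 ± 0.20, adjusted p = 0.00309), while Irf3, the transcription factor that Sting1 activates, fell in Teff cells by 1.39 ± 0.29 (adjusted p = 0.00729). Sting1, the adaptor below p204, averaged 10.70 in anti-CD3-CD28 Treg and 9.01 in anti-CD3-CD28 Teff cells (difference 1.69 ± 0.22, adjusted p = 0.000930), the reverse of Ifi204. Against the same shares of all genes, of 20 inflammasome and pyroptosis genes, 0 rose and 2 fell in anti-CD3-CD28 Treg against control Treg cells. They were the inflammatory caspase Casp4, by 1.42 ± 0.32 (adjusted p = 0.0167), and Il18, by 0.97 ± 0.24 (adjusted p = 0.0255). Il18 averaged 3.07 in anti-CD3-CD28 Treg and 4.04 in control Treg cells, both under 4.87. In anti-CD3-CD28 Teff against control Teff cells 1 rose, Nlrp3 (0.84 ± 0.25, adjusted p = 0.0435, at 4.68 still under 4.87), and 2 fell, Casp8 by 1.32 ± 0.25 (adjusted p = 0.00444) and Il1b by 0.86 ± 0.20 (adjusted p = 0.0139). Il1b averaged 4.14 in anti-CD3-CD28 Teff cells, under 4.87. After quantile normalization 0 rose in either comparison, while 1 fell in Treg and 2 in Teff cells. With those 2 arrays that stood apart left out, 3 rose and 3 fell in each comparison, at 21.5% of all genes called in Treg and 28.9% in Teff cells.

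Of 7 measured partners of p204, 2 rose and 1 fell in anti-CD3-CD28 Treg against control Treg cells, and 1 rose and 4 fell in anti-CD3-CD28 Teff against control Teff cells. The shares of all genes were 8.08% higher and 1.97% lower in Treg and 5.44% higher and 9.75% lower in Teff cells. The inhibitor of DNA binding Id3 fell by 2.53 ± 0.34 in Treg (adjusted p = 0.000523) and by 2.02 ± 0.34 in Teff cells (adjusted p = 0.00202), while its relative Id2 rose by 1.54 ± 0.43 (adjusted p = 0.0420) and 1.56 ± 0.43 (adjusted p = 0.0297). The retinoblastoma gene Rb1 fell by 0.91 ± 0.26 in Teff cells (adjusted p = 0.0343). After quantile normalization 1 rose and 2 fell in Teff cells, with 5.11% of all genes higher and 6.45% lower.

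In OX40L-JAG1 Teff against control Teff cells, 0 interferon-induced effectors rose and 8 fell, 0 receptors and transducers rose and 11 fell, 0 sensing genes rose and 13 fell, 6 inflammasome genes rose and 2 fell, and 0 partners of p204 rose and 4 fell. After quantile normalization these counts were 3 and 5 for the effectors, 3 and 3 for the receptors and transducers, 0 and 4 for the sensing genes, 0 and 1 for the inflammasome genes and 0 and 1 for the partners. All genes had 20.0% higher and 26.9% lower as deposited, and 9.1% higher and 12.6% lower after quantile normalization. With a common median they had 8.92% higher and 31.0% lower. This comparison rests on the arrays that stood apart, and the part of the lower T cell and higher myeloid and neutrophil markers in these counts was not tested. Among the inflammasome genes, Casp8 fell by 2.86 ± 0.25 (adjusted p = 3.24e-05), and the pyrin gene Mefv, at 4.64, was higher than in control Teff cells by 1.09 ± 0.30 (adjusted p = 0.0120) but below 4.87.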

How the data were processed

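Total RNA of 12 sorted cell samples was hybridised to Affymetrix Mouse Gene 2.0 ST arrays. The deposited values are log2 intensities made by the authors with RMA, per the submitters' processing notes, and their version and genome build are not given in the sources used here. The values were used as deposited. Of 41345 rows, 23521 carried exactly 1 gene symbol, and each gene was read from its brightest row on average, which gave 22180 genes. Symbols were updated through a RefSeq gene table.

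All 12 arrays entered a linear model with a mean for each group, fitted with limma 3.58.1 in R 4.3.3 and eBayes (6 residual degrees of freedom), for 9 comparisons and 2 interactions. P-values are two-sided and Benjamini-Hochberg adjusted over all genes of a comparison, with a threshold of 0.05. On simulated data for anti-CD3-CD28 Teff against control Teff with 22180 genes, 21% of 100 changes of 1 on the log2 scale and 81% of 100 changes of 2 were called, with 6 false calls. No other gene was changed there, and the noise followed the spread pooled over all 6 groups. In the measured data 15.2% of all genes were called in that comparison, so these rates do not give its power.

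The members and lists were chosen with earlier results of these data known. The design named 5 tested members. Ifi203 had only a shared row, so 4 were tested in the counts. The genes named are the members, the other PYHIN genes with a row, up to 4 called genes of each list per comparison with the largest differences and no overlap, the 5 genes most like Ifi204 and Ifi208, leading or defining markers and Foxp3. Csf1r and Adgre1 were singled out after their values were seen, and so were Ifi203's shared row and the row shared by Ifi211 and Ifi204. Promoter letters came from RefSeq (GRCm38.p6). Alternatives were the replicate block, dim genes left out, quantile normalization, a common median, a trend and robust prior, the OX40L-JAG1 Teff arrays left out, only the arrays compared, array weights, the mean of a gene's rows, all rows and each array left out in turn.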

Additional observations from a re-analysis of the deposited data

Results flagged for a closer look

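The responses of Treg and Teff cells to OX40L and JAG1 differed, by the interaction test of limma, for 4 of 9 tested PYHIN genes with a row of their own, with 31.5% of all genes called. The difference (Treg minus Teff) was 1.06 for Aim2 (lost after quantile normalization, adjusted p = 0.196), 2.26 for Ifi213, 1.43 for Ifi214 (adjusted p = 0.0168) and 0.87 for Ifi203-ps (adjusted p = 0.0438), the last at levels below background. The response to anti-CD3 and anti-CD28 differed by 1.18 for Ifi213 (lost after quantile normalization, adjusted p = 0.226), with 13.1% of all genes called. The row shared by Ifi211 and Ifi204, which lies outside the tests of single genes, was above its control level by 1.61 in anti-CD3-CD28 Treg and by 3.69 in anti-CD3-CD28 Teff cells.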

How the results depend on the processing

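Of 10 member differences called, 2 were called under every alternative run, those of Aim2 in OX40L-JAG1 Teff against control Teff (-1.80 to -1.19, adjusted p up to 0.0371) and in OX40L-JAG1 Treg against OX40L-JAG1 Teff (1.44 to 2.04, adjusted p up to 0.0464). The cause of the changes below was not tested, except that fewer arrays carry fewer residual degrees of freedom. For OX40L-JAG1 Treg against control Treg, 345 genes were called, against 1200 without the OX40L-JAG1 Teff arrays, 771 with only the arrays compared and 1010 with array weights, and 99 to 1200 with 1 array left out. For anti-CD3-CD28 Treg against control Treg, 2230 genes were called, against 4770 without the OX40L-JAG1 Teff arrays, 4705 with only the arrays compared and 5450 with array weights, and 1054 to 4770 with 1 array left out. Anti-CD3-CD28 Treg against control Treg had 0 of the 4 members called, against 1 without the OX40L-JAG1 Teff arrays, 1 with only the arrays compared and 1 with array weights, and 0 to 1 with 1 array left out. For anti-CD3-CD28 Treg against OX40L-JAG1 Treg, 1311 genes were called, against 3082 without the OX40L-JAG1 Teff arrays, 2771 with only the arrays compared and 3435 with array weights, and 595 to 3082 with 1 array left out. For OX40L-JAG1 Teff against control Teff, 10405 genes were called, against 4823 after quantile normalization, 3524 with only the arrays compared and 4688 with array weights, and 6129 to 13691 with 1 array left out. OX40L-JAG1 Teff against control Teff had 3 of the 4 members called, against 1 after quantile normalization, 1 with only the arrays compared and 1 with array weights, and 1 to 4 with 1 array left out. For anti-CD3-CD28 Teff against control Teff, 3369 genes were called, against 6421 without the OX40L-JAG1 Teff arrays, 5638 with only the arrays compared, 6431 with array weights and 5477 with all rows tested, and 1425 to 6421 with 1 array left out. Anti-CD3-CD28 Teff against control Teff had 0 of the 4 members called, against 1 with dim genes left out, 1 without the OX40L-JAG1 Teff arrays, 1 with only the arrays compared and 1 with array weights, and 0 to 1 with 1 array left out. For anti-CD3-CD28 Teff against OX40L-JAG1 Teff, 6224 genes were called, against 3476 after quantile normalization, 363 with only the arrays compared and 1427 with array weights, and 2666 to 10906 with 1 array left out. Anti-CD3-CD28 Teff against OX40L-JAG1 Teff had 2 of the 4 members called, against 0 after quantile normalization, 0 with only the arrays compared and 0 with array weights, and 0 to 4 with 1 array left out. For control Treg against control Teff, 853 genes were called, against 3220 without the OX40L-JAG1 Teff arrays, 3115 with only the arrays compared and 4167 with array weights, and 248 to 3220 with 1 array left out. Control Treg against control Teff had 0 of the 4 members called, against 1 without the OX40L-JAG1 Teff arrays, 1 with only the arrays compared and 1 with array weights, and 0 to 1 with 1 array left out. For OX40L-JAG1 Treg against OX40L-JAG1 Teff, 9110 genes were called, against 4013 after quantile normalization, 1079 with only the arrays compared and 3137 with array weights, and 5043 to 12824 with 1 array left out. OX40L-JAG1 Treg against OX40L-JAG1 Teff had 3 of the 4 members called, against 1 with only the arrays compared, and 3 to 4 with 1 array left out. For anti-CD3-CD28 Treg against anti-CD3-CD28 Teff, 2645 genes were called, against 1116 after quantile normalization, 6362 without the OX40L-JAG1 Teff arrays, 5131 with only the arrays compared and 6113 with array weights, and 688 to 6362 with 1 array left out. Anti-CD3-CD28 Treg against anti-CD3-CD28 Teff had 1 of the 4 members called, against 0 after quantile normalization, 2 without the OX40L-JAG1 Teff arrays, 2 with only the arrays compared, 2 with array weights and 0 with all rows tested, and 0 to 2 with 1 array left out. For the OX40L-JAG1 interaction, 6996 genes were called, against 2391 after quantile normalization, and 4142 to 12172 with 1 array left out. The OX40L-JAG1 interaction had 1 of the 4 members called, against 3 with the replicate block, 2 with dim genes left out, 0 after quantile normalization, 3 with a common median, 0 with only the arrays compared and 0 with array weights, and 0 to 4 with 1 array left out. For the anti-CD3-CD28 interaction, 2904 genes were called, against 1071 after quantile normalization, 6869 without the OX40L-JAG1 Teff arrays, 7022 with only the arrays compared, 7344 with array weights and 4498 with all rows tested, and 971 to 6869 with 1 array left out. The members called numbered 0 under every setting run for OX40L-JAG1 Treg against control Treg, anti-CD3-CD28 Treg against OX40L-JAG1 Treg and the anti-CD3-CD28 interaction. The replicate block added B and 1 to the model. The labels do not say that equal replicate labels share a source, and the 15 correlations of replicate differences between groups ran from -0.0693 to 0.182, so the samples are not treated as paired. With the block, the call of Aim2 in anti-CD3-CD28 Treg against anti-CD3-CD28 Teff was lost (adjusted p = 0.0636). The sign turned in these cases, of which only Ifi209 in OX40L-JAG1 Teff against control Teff was called as reported. The interaction of Ifi204 for OX40L-JAG1 (-0.25), not tested, was 0.17 after quantile normalization, 0.0054 with a common median and ran from -0.60 without OX40L-JAG1 Teff replicate B to 0.11 without its replicate 1. Ifi209 in OX40L-JAG1 Treg against control Treg (0.14) was -0.055 to 0.34 with 1 array left out. Ifi209 in anti-CD3-CD28 Treg against control Treg (0.0031) was -0.20 after quantile normalization, -0.20 to 0.20 with 1 array left out. Mndal in anti-CD3-CD28 Treg against control Treg (-0.13) was -0.41 to 0.15 with 1 array left out. Ifi205 in anti-CD3-CD28 Treg against control Treg (-0.20) was -0.72 to 0.32 with 1 array left out. Ifi205 in anti-CD3-CD28 Treg against OX40L-JAG1 Treg (0.22) was -0.30 to 0.74 with 1 array left out. Ifi209 in OX40L-JAG1 Teff against control Teff (-0.88) was 0.10 after quantile normalization. Ifi205 in anti-CD3-CD28 Teff against control Teff (0.15) was -0.0081 after quantile normalization, -0.011 to 0.31 with 1 array left out. Ifi209 in anti-CD3-CD28 Teff against control Teff (0.21) was -0.071 to 0.49 with 1 array left out. Mndal in anti-CD3-CD28 Teff against OX40L-JAG1 Teff (0.63) was -0.16 after quantile normalization, -0.20 to 1.45 with 1 array left out. Ifi205 in anti-CD3-CD28 Teff against OX40L-JAG1 Teff (-0.51) was -1.05 to 0.028 with 1 array left out. Ifi205 in anti-CD3-CD28 Treg against anti-CD3-CD28 Teff (-0.090) was 0.12 after quantile normalization, 0.057 with a common median, -0.61 to 0.43 with 1 array left out. Ifi209 in anti-CD3-CD28 Treg against anti-CD3-CD28 Teff (0.037) was -0.22 after quantile normalization, -0.24 to 0.32 with 1 array left out. Ifi209 in the OX40L-JAG1 interaction (1.02) was -0.013 after quantile normalization. Aim2 in the anti-CD3-CD28 interaction (0.10) was -0.39 after quantile normalization, -0.10 to 0.30 with 1 array left out. Ifi209 in the anti-CD3-CD28 interaction (-0.21) was -0.49 to 0.074 with 1 array left out. Ifi205 in the anti-CD3-CD28 interaction (-0.35) was -0.87 to 0.17 with 1 array left out. Of 621 differences of tested members under the alternatives, 528 kept both their direction and their side of the threshold. That tally includes differences not called as reported, for which staying uncalled counts as kept. Of the 10 that were called, only 2 stayed called throughout. Of 305 of Ifi204 and Ifi208, which have no test, 290 kept their direction. Leaving out the OX40L-JAG1 Teff arrays gives no value for comparisons that use them, and leaving out dim genes gives none for Ifi204 and Ifi205. A group of 2 arrays and rows below the array median limit what can be called, and a lone array is assumed to vary like the other groups.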

Other observations

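Between control Treg and control Teff cells, 2 of 20 inflammasome genes were higher and 1 lower, with 1.34% of all genes higher and 2.51% lower. Without the OX40L-JAG1 Teff arrays these were 4 higher and 2 lower, with 14.5% of all genes called. Casp4 averaged 8.25 in control Treg and 6.33 in control Teff cells (1.92 ± 0.32, limma adjusted p = 0.00660). Il18 averaged 4.04 in control Treg and 2.88 in control Teff cells (1.16 ± 0.24, adjusted p = 0.0223), both under 4.87. Il1b averaged 4.11 in control Treg cells, also under 4.87, and 5.00 in control Teff cells (-0.89 ± 0.20, adjusted p = 0.0345). Of 18 interferon-induced effectors, 2 were higher and 1 lower, or 6 and 2 without those arrays. The effectors Gbp3 (1.99 ± 0.34, adjusted p = 0.00694) and Gbp5 (1.24 ± 0.18, adjusted p = 0.00243) were higher in control Treg than in control Teff cells, and Oas2 was lower (-1.68 ± 0.22, adjusted p = 0.00142).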
